A study of Mus musculus with 6 samples.

Results

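The genes described here are 9 genes of glycogen synthesis and breakdown, Gys2, Gbe1, Gyg, Pygl, Ppp1r3b, Ppp1r3c, Ugp2, Pgm1 and Pgm2, measured in mouse liver RNA. They were found by symbol among the 29981 rows of the deposited gene table, and each had a row of its own. Livers came from C57BL/6 mice whose hepatocytes lacked the cholesterol and phospholipid transporter Abca1, deleted with Cre under the Albumin promoter (HSKO, 3 samples), and from floxed controls labelled wild type (WT, 3 samples). Ages and sexes are not given in the labels used here, and all mice went without food from 9 am to 1 pm before collection. The labels do not say whether each sample came from a separate mouse, and the p-values therefore reflect spread among samples that may be technical. HSKO replicates 1 and 2 were the most alike within a group, with a chi-square of reads per degree of freedom of 2.38. For the other pairs within a group it was 9.73 to 15.8. Whether HSKO replicates 1 and 2 are independent samples was not tested.

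Glycogen is the branched glucose polymer in which liver stores sugar after a meal and from which it releases glucose between meals. Phosphoglucomutase turns glucose-6-phosphate into glucose-1-phosphate, UDP-glucose pyrophosphorylase (Ugp2) activates it, glycogenin (Gyg) primes a new chain, glycogen synthase (Gys2 in liver) lengthens it and the branching enzyme (Gbe1) adds branches. Glycogen phosphorylase (Pygl in liver) removes glucose units again as glucose-1-phosphate. The regulatory subunits Ppp1r3b and Ppp1r3c bring protein phosphatase 1 to the glycogen particle, where it favours synthesis over breakdown.

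Pygl was lower in HSKO livers, and no other glycogen gene passed the test with the deposited scaling. Its mean level in HSKO was 0.599 times that in WT. The liver synthase Gys2 differed by less than the spread between libraries, at 0.882 times, and the HSKO and WT values of Ugp2, Ppp1r3b and Pgm2 overlapped as well. Gbe1 and Ppp1r3c had few reads, and the rows Gyg and Pgm1 had almost none. The mean of every one of the 9 genes was lower in HSKO than in WT, which was also so for 58.1% of the 13807 rows above 0 in some library.

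The libraries were shallow. Reads recovered from the deposited values summed to 631020 to 702013 in HSKO libraries and to 838637 to 933319 in WT libraries, and a single row, BC071253, held 46.2% to 57.8% of them in HSKO and 43.1% to 52.9% in WT. Abca1 had 2, 1 and 2 reads in HSKO libraries and 20, 36 and 34 reads in WT libraries, so all 6 libraries matched their labels. All 15 hepatocyte markers were measured, and together they took 1.28% ± 0.356 of reads in HSKO and 3.05% ± 0.843 in WT (SD, n = 3 each). Their summed level, in normalized reads, was 9797 to 14467 in HSKO libraries and 15741 to 18773 in WT libraries. The markers of other liver cells given below also took a smaller mean share of reads in HSKO. It was 0.00251% in HSKO and 0.00661% in WT for endothelial markers, and 0.00240% and 0.00728% for stellate and fibroblast markers. In whole liver, fewer hepatocytes and less of a transcript per hepatocyte cannot be told apart. Levels below are deposited values in normalized reads, that is reads over a size factor for their library. The size factors of replicates 1 to 3 were 0.684, 0.688 and 0.752 in HSKO and 1.31, 1.52 and 1.77 in WT. They were thus lower in every HSKO library than in any WT library. A log2 fold change is the HSKO mean minus the WT mean of log2(value + 1), and the added 1 shrinks the changes of genes with low levels.

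Pygl encodes the liver form of glycogen phosphorylase and lies on chromosome 12 from 70190815 to 70227683, on the minus strand (RefSeq, GRCm38, the build the authors name as mm10). It was the most abundant of the 9 rows. Normalized reads were 52.6, 59.6 and 43.9 in HSKO livers, against 104.6, 73.0 and 82.9 in WT livers. Every HSKO library lay below every WT library, as for 20.1% of the 2750 rows tested. The raw reads behind these levels were 36, 41 and 33 in HSKO and 137, 111 and 147 in WT. The level averaged 52.0 ± 7.88 in HSKO and 86.8 ± 16.1 in WT (SD, n = 3 each), a log2 fold change of -0.72 with an interval of 95% from -1.25 to -0.20 (SE 0.25, limma adjusted p = 0.0281). Of the 2750 rows, limma called 11.6% lower and 28.5% higher at an adjusted p below 0.05, so 1 of 5 tested glycogen genes called lower is not a share that sets them apart.

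The call of Pygl depended on how libraries were scaled and on single libraries. Its log2 fold change was below 0 in all 21 alternatives and it was called in 15 of them. With libraries scaled to hepatocyte markers it was -0.15 (limma adjusted p = 0.773). With the deposited scaling, 14 of the 15 hepatocyte markers had log2 fold changes below 0. Of these 15 markers, 7 were called lower and 0 higher, beside 11.6% and 28.5% of all 2750 rows. Their part in the lower level of Pygl was not tested. Without HSKO replicate 1 the log2 fold change of Pygl was -0.74 (limma adjusted p = 0.0583), without HSKO replicate 3 it was -0.61 (0.0856) and without WT replicate 1 it was -0.58 (0.0877), so the call was lost while the fold change moved by less than its SE with all libraries.

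**Figure D1:**
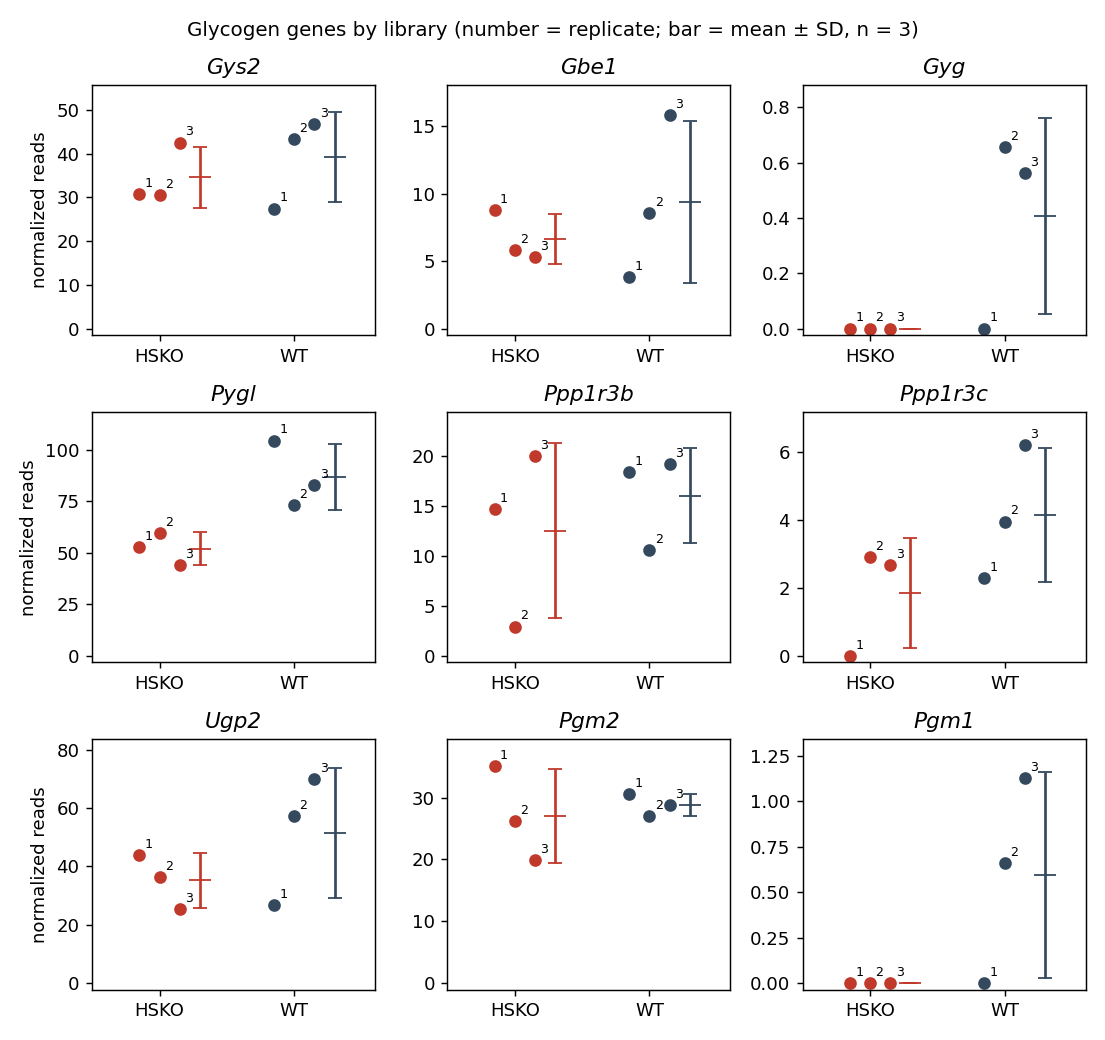
Normalized reads (linear axis from 0) of the 9 glycogen genes in each HSKO and WT library, with points numbered by replicate and bars giving the mean ± SD of 3 libraries. HSKO and WT libraries are apart for Pygl alone, and the rows Gyg and Pgm1 stay near 0.

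The upstream sequence of Pygl is shown because it is the only member called, and that of Ugp2 because it is the next most abundant and was not called. Both are the 250 bases before a RefSeq transcription start on the minus strand of GRCm38.p6, at chr12:70227684-70227933 for Pygl and chr11:21371268-21371517 for Ugp2, printed 5′ to 3′. Capitals mark matches, on either strand, to the short CRE motif TGACG, the E-box CACGTG, the CCAAT box CCAAT, the TATA box TATAAA and the GC box GGGCGG. 
Pygl: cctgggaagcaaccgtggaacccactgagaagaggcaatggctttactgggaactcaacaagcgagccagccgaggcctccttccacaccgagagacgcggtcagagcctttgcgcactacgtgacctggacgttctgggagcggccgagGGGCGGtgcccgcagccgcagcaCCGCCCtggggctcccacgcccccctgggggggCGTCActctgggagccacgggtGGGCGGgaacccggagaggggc
Ugp2: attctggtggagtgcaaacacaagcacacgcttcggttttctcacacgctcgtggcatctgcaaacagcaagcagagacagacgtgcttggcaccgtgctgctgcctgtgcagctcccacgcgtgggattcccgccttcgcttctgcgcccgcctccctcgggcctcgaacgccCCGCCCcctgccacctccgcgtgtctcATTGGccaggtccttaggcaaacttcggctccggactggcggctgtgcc
The Pygl window held 3 GC boxes and 1 short CRE motif, and the Ugp2 window 1 GC box and 1 CCAAT box. Neither held an E-box or a TATA box, nor the full CRE TGACGTCA, which contains the short motif. Among 32851 RefSeq windows of the same length, 32.7% held a GC box, 17.8% a short CRE motif, 33.8% a CCAAT box, 6.02% an E-box, 12.4% a TATA box and 1.55% a full CRE. A match describes letters in the window and is not a binding site shown here. RefSeq lists a second start for Ugp2, whose window is not printed. In the GENCODE M21 annotation, Pygl spans 70190811 to 70231488 on the minus strand, so the window printed for Pygl lies inside that span.

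Gys2, the liver glycogen synthase, lies on chromosome 6 from 142422612 to 142473130. Normalized reads were 30.7, 30.5 and 42.6 in HSKO livers, against 27.5, 43.4 and 46.8 in WT livers. The groups overlapped, with WT replicate 1 the lowest of the 6 libraries. The level averaged 34.6 ± 6.89 in HSKO and 39.2 ± 10.3 in WT (SD, n = 3 each), a log2 fold change of -0.16 (limma adjusted p = 0.669, SE 0.28). Its interval of 95%, from -0.74 to 0.43, leaves room for a change of the size seen for Pygl. Gys2 was called lower when libraries were scaled to total reads (log2 fold change -0.82, limma adjusted p = 0.0428), and its log2 fold change was 0.41 with scaling to hepatocyte markers (adjusted p = 0.321).

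The ratio of raw reads of Gys2 to raw reads of Pygl within a library does not depend on how libraries are scaled. Gys2 had 0.583, 0.512 and 0.970 reads per Pygl read in HSKO livers, against 0.263, 0.595 and 0.565 in WT livers. The groups overlapped, because HSKO replicate 2 lay below WT replicates 2 and 3. The ratio tested was of normalized levels on the log2 scale with 1 added to each, so scaling enters through the added 1. This log2 ratio averaged -0.58 ± 0.48 in HSKO and -1.15 ± 0.65 in WT (SD, n = 3 each). The difference of 0.56 was within the spread between libraries (two-sided exact permutation p = 0.5, where 3 against 3 can give no less than 0.1). A fall of Pygl without a like fall of Gys2 was therefore not shown.

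**Figure D2:**
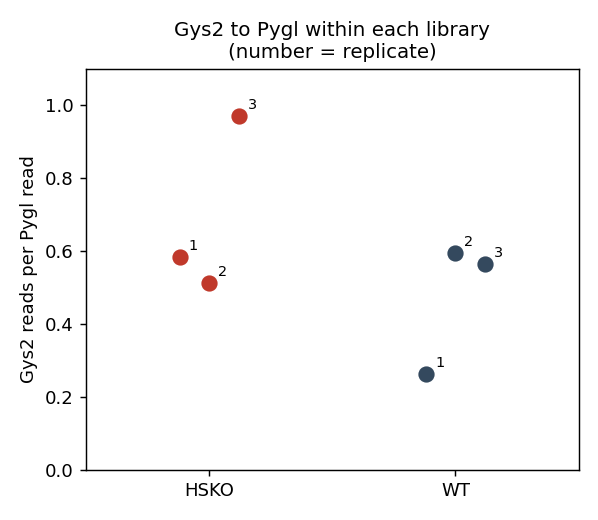
Raw reads of the synthase gene Gys2 per read of the phosphorylase gene Pygl in each library (linear axis from 0), HSKO on the left and WT on the right, with points numbered by replicate. HSKO replicate 3 is highest at 0.970, WT replicate 1 is lowest at 0.263, and the groups overlap.

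Gbe1, the branching enzyme, lies on chromosome 16 from 70313949 to 70569720, and its mean level did not reach the minimum of 10 set for the test. It had 6, 4 and 4 reads in HSKO libraries, against 5, 13 and 28 reads in WT libraries. Normalized reads were 8.77, 5.82 and 5.32 in HSKO and 3.82, 8.55 and 15.8 in WT, so the HSKO values lay inside the WT range. After correction for size factors, HSKO had 0.660 times the reads of WT (exact 95% interval 0.335 to 1.22, for counting error alone). The direction rests on WT replicate 3, which gave 28 of the 46 WT reads. The HSKO minus WT difference of mean log2(value + 1) was -0.29 with all libraries, 0.14 without WT replicate 3 and -0.76 without WT replicate 1, and it was 0.23 with scaling to hepatocyte markers.

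Gyg, glycogenin, on chromosome 3 from 20122083 to 20155117, had 0 reads in all HSKO libraries and 0, 1 and 1 reads in WT libraries. A count of 0 allows up to 3 reads, a level of up to 3.99 to 4.38 normalized reads in an HSKO library, so no difference in Gyg was detectable at this depth.

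Ppp1r3b encodes the phosphatase 1 glycogen-targeting subunit of liver and lies on chromosome 8 from 35375694 to 35388139. Normalized reads were 14.6, 2.91 and 19.9 in HSKO livers, against 18.3, 10.5 and 19.2 in WT livers. HSKO replicate 2, with 2 reads, was the lowest library, and HSKO replicate 3 was the highest. The level averaged 12.5 ± 8.72 in HSKO and 16.0 ± 4.76 in WT (SD, n = 3 each), a log2 fold change of -0.60 (limma adjusted p = 0.331, SE 0.49). Without HSKO replicate 2 it was 0.13 (adjusted p = 0.794), so the direction rests on that library.

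Ppp1r3c, which encodes the targeting subunit also called PTG, lies on chromosome 19 from 36731731 to 36736604. It had 0, 2 and 2 reads in HSKO libraries, against 3, 6 and 11 reads in WT libraries. Normalized reads were 0, 2.91 and 2.66 in HSKO and 2.29, 3.95 and 6.20 in WT, with an overlap between HSKO replicates 2 and 3 and WT replicate 1. After the same correction, HSKO had 0.433 times the reads of WT (exact 95% interval 0.108 to 1.29, for counting error alone), an interval that includes no difference. Within libraries, the log2 ratio of Ppp1r3b to Ppp1r3c, with 1 added to each level, averaged 2.16 ± 2.01 in HSKO and 1.75 ± 0.71 in WT (SD, n = 3 each, two-sided exact permutation p = 0.9).

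Ugp2, which makes the UDP-glucose that glycogen synthase uses, lies on chromosome 11 from 21321126 to 21371267. Normalized reads were 43.8, 36.4 and 25.3 in HSKO livers, against 26.7, 57.3 and 69.9 in WT livers. WT replicates 2 and 3 were above all HSKO libraries, and WT replicate 1 lay near the lowest. The level averaged 35.2 ± 9.35 in HSKO and 51.3 ± 22.2 in WT (SD, n = 3 each), a log2 fold change of -0.46 with an interval of 95% from -1.14 to 0.22 (SE 0.33, limma adjusted p = 0.265). Without WT replicate 1 it was -0.86 and passed (adjusted p = 0.0258), whereas without WT replicate 3 it was -0.19 (0.710) and without HSKO replicate 3 it was -0.25 (0.589). Ugp2 also passed in edgeR on the recovered reads (-0.80, adjusted p = 0.0422) and with limma scaled to total reads (-1.12, adjusted p = 0.0160), but its log2 fold change was 0.11 with scaling to hepatocyte markers. An exon of Ugp2 overlaps Gm12043 on the other strand, and the strand setting of the counting was not given in the sources used here.

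The phosphoglucomutase rows are uncertain in name. In RefSeq, the mouse gene now called Pgm1, on chromosome 4, carries Pgm2 as an older symbol, and the gene now called Pgm2, on chromosome 5, carries Pgm1. Which locus each row of the table counts cannot be told from the symbols, so no position is given for them. The row Pgm2 had 35.1, 26.2 and 19.9 normalized reads in HSKO livers, against 30.5, 27.0 and 28.8 in WT livers. The WT values lay inside the HSKO range. The level averaged 27.1 ± 7.61 in HSKO and 28.8 ± 1.77 in WT (SD, n = 3 each), a log2 fold change of -0.12 with an interval of 95% from -0.70 to 0.46 (SE 0.28, limma adjusted p = 0.755).

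The row Pgm1 had 0 reads in all HSKO libraries and 0, 1 and 2 reads in WT libraries, so no difference was detectable. Phosphoglucomutase reads in these livers thus fell almost wholly on the row Pgm2, with 57 reads summed over HSKO libraries and 132 over WT libraries. The log2 ratio of Pgm1 to Pgm2 levels, set mostly by the 1 added to each, averaged -4.78 ± 0.39 in HSKO and -4.29 ± 0.61 in WT (SD, n = 3 each, two-sided exact permutation p = 0.3).

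Per kilobase of the principal mRNA in GENCODE M21, Pygl and Ugp2 had the highest levels among the 7 genes with a settled locus. Pygl was at 18.4 ± 2.79 normalized reads per kilobase in HSKO and 30.7 ± 5.70 in WT, and Ugp2 at 13.1 ± 3.48 in HSKO and 19.1 ± 8.28 in WT (SD, n = 3 each). Gys2 followed at 13.0 ± 2.59 in HSKO and 14.8 ± 3.89 in WT. Ppp1r3b came next at 2.85 ± 1.99 in HSKO and 3.65 ± 1.09 in WT, with Gbe1 at 2.33 ± 0.655 in HSKO and 3.30 ± 2.12 in WT. Ppp1r3c, at 0.681 ± 0.592 in HSKO and 1.52 ± 0.721 in WT, and Gyg were lowest. The ranges of mean ± SD overlapped in both groups between Pygl and Ugp2, between Ugp2 and Gys2, and between Ppp1r3b and Gbe1.

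Summed over the 9 rows, glycogen genes had 127, 113 and 120 reads in HSKO libraries and 280, 342 and 481 reads in WT libraries. As a share of all reads this was 0.0201%, 0.0161% and 0.0186% in HSKO, against 0.0314%, 0.0366% and 0.0574% in WT. The summed normalized level was 186, 164 and 159.6 in HSKO and 214, 225 and 271 in WT, with all HSKO libraries below all WT libraries on both scales. Of the 2750 rows tested singly, 20.1% had all HSKO below all WT libraries in normalized reads. The sum includes Pygl, the most abundant of the 9 rows and the only one whose HSKO and WT libraries were apart. In HSKO replicate 1, Pygl gave 52.6 of the summed normalized level of 186, and in WT replicate 1 it gave 104.6 of 214. Without Pygl, the sum in normalized reads was thus higher in HSKO replicate 1 than in WT replicate 1, and the groups overlapped. A sum without Pygl was not worked out as a share of all reads, and neither sum was tested. The median log2 fold change of the 5 tested genes was -0.46, against 0.07 over all 2750 rows. The median over all rows depended on the filter, at -0.22 with no filter and 0.88 with a minimum mean of 50. Rows were not matched for level in this comparison. With libraries scaled to hepatocyte markers, the same 5 genes had a median of 0.11, against 0.62 over all rows.

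The number of glycogen genes called lower differed between scalings and tests, and in limma, edgeR and DESeq2 0 were called higher, also at an unadjusted p below 0.05. It was 1, Pygl, with the deposited scaling, upper quartile scaling and quantile normalization. It was 2, Pygl and Ugp2, with edgeR and TMM, which changed the test as well as the scaling, and with total reads less the largest row, and 4, all tested members but Ppp1r3b, with total reads. It was 0 with scaling to hepatocyte markers. The share of all tested rows called lower was 11.6% with the deposited scaling, 25.6% with upper quartile scaling, 18.3% with quantile normalization and 21.9% with edgeR. It was 33.2% with total reads less the largest row, 38% with total reads and 0.8% with hepatocyte markers.

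**Figure D3:**
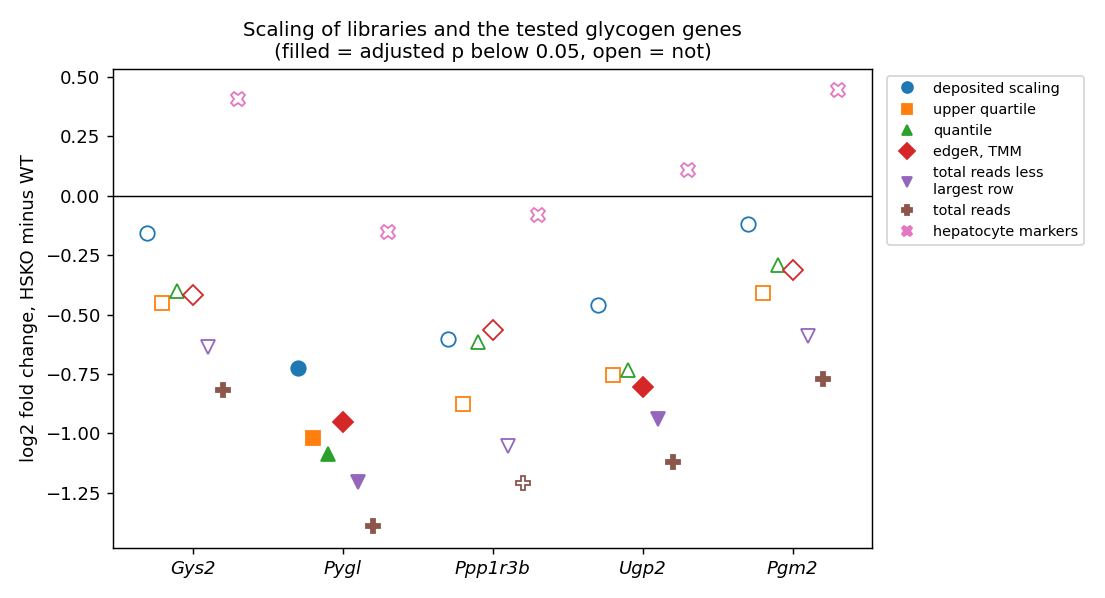
Log2 fold change (HSKO minus WT) of the 5 tested glycogen genes under 7 scalings of the libraries, tested with limma except for the edgeR one, with filled symbols where the adjusted p was below 0.05. Pygl is the lowest of the 5 in all 7 scalings, between -1.39 and -0.15, and scaling to hepatocyte markers puts Gys2, Ugp2 and Pgm2 above 0.

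The rows whose pattern over the 6 libraries was most like that of Pygl were Cmbl, Slc9a3r1 and Slc38a10, by the root mean square difference of log2 levels after centring each row (0.0961, 0.0981 and 0.105). Those most like Ugp2 were Ugt2a3, Prpf6 and Dld (0.0841, 0.136 and 0.139). These are the nearest 3 of 2750 rows over 6 libraries, given as a description.

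Around the glycogen cycle, genes that handle glucose and glucose-6-phosphate were also measured. Of 11 genes in that list, 5 reached the minimum level, and limma called 2 of those lower and 0 higher (also 0 higher at an unadjusted p below 0.05, in edgeR and in DESeq2). The share called over all 2750 rows was 11.6% lower and 28.5% higher. Slc2a2, the glucose transporter of the hepatocyte membrane, averaged 11.4 ± 2.85 in HSKO and 33.5 ± 3.73 in WT (SD, n = 3 each, log2 fold change -1.50, limma adjusted p = 0.00098), and it was called in all 20 alternatives that tested it. H6pd, which oxidises glucose-6-phosphate inside the endoplasmic reticulum, averaged 29.2 ± 2.39 in HSKO and 53.7 ± 7.19 in WT (-0.85, adjusted p = 0.0126), a call lost with scaling to hepatocyte markers (adjusted p = 0.531). Not called were G6pc, the catalytic subunit that frees glucose from glucose-6-phosphate (log2 fold change 0.22), its transporter partner Slc37a4 (-0.31) and the isomerase Gpi1 (-0.49), with limma adjusted p of 0.588, 0.445 and 0.286.

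Among 25 regulators of the glycogen enzymes, 7 were tested, and 1 was higher and 1 lower. Over all 2750 rows, limma called 28.5% higher and 11.6% lower, so these counts do not set the regulators apart. Gsk3a, a kinase that phosphorylates and inhibits glycogen synthase, averaged 45.6 ± 9.57 in HSKO and 24.3 ± 4.21 in WT (SD, n = 3 each, log2 fold change 0.87, limma adjusted p = 0.0163). It gave 24, 37 and 36 raw reads in HSKO and 38, 35 and 37 in WT, and its log2 fold change was 0.22 when libraries were scaled to total reads (limma adjusted p = 0.536). Its fold change was above 0 in all 20 alternatives, but the call was lost in 9 of them. The others were total reads less the largest row (adjusted p = 0.226), upper quartile scaling (0.0752), quantile normalization (0.0528), no filter (0.0590) and DESeq2 (0.0738), and leaving out HSKO replicate 2 (0.0716), WT replicate 2 (0.0598) or WT replicate 3 (0.0608). Insr, the insulin receptor, averaged 9.50 ± 2.57 in HSKO and 19.98 ± 3.79 in WT (-1.02, adjusted p = 0.0238), and was -0.47 with scaling to hepatocyte markers (adjusted p = 0.386). The call of Insr was also lost with no filter (adjusted p = 0.0814) and without HSKO replicate 3 (log2 fold change -0.80, adjusted p = 0.0656), WT replicate 2 (-0.87, 0.133) or WT replicate 3 (-1.08, 0.0612). Gcgr, the glucagon receptor, did not pass with the deposited scaling (-0.64, adjusted p = 0.116) and passed as lower in 6 of 20 alternatives. Pde3b, a cyclic AMP phosphodiesterase, had a log2 fold change of -0.23, the protein kinase A subunit Prkar1a -0.29 and the shared row AK182655,Ppp1ca, which includes a catalytic subunit of phosphatase 1, -0.22, and none passed (limma adjusted p of 0.563, 0.561 and 0.663). The phosphorylase kinase genes Phka1, Phka2, Phkb, Phkg1 and Phkg2 had at most 7 reads in any library.

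Of 8 UDP-sugar genes, 3 were tested, and 1 was called lower and 1 higher, beside 11.6% and 28.5% of all 2750 rows. Ugdh, which turns UDP-glucose into UDP-glucuronic acid, was lower at 8.54 ± 4.02 in HSKO and 20.5 ± 4.72 in WT (SD, n = 3 each, log2 fold change -1.23, limma adjusted p = 0.0136), and this call was lost with scaling to hepatocyte markers (adjusted p = 0.217) and without WT replicate 2 (0.0814) or WT replicate 3 (0.0672). Pgm3, a relative of the phosphoglucomutases that acts on N-acetylglucosamine phosphate, was higher at 163.6 ± 27.5 in HSKO and 51.7 ± 15.3 in WT (1.68, adjusted p = 0.000549), in all 21 alternatives. Whether the reads of the row Pgm3 came from that gene was not tested. Galt, of galactose breakdown, did not pass (0.44, adjusted p = 0.391). The other phosphoglucomutase relatives, Pgm5 and the shared row Pgm2l1,AK164085, had at most 3 reads in any library.

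Of 8 further glycogen enzymes and binding proteins, only Stbd1, which tethers glycogen to membranes, was tested, and it did not pass (log2 fold change -0.35, limma adjusted p = 0.497). The synthase and phosphorylase forms of other tissues, Gys1, Pygb and Pygm, had at most 4 reads in any library, and all 6 skeletal muscle markers had 0 reads. The lysosomal glucosidase gene Gaa had 3, 7 and 5 reads in HSKO and 12, 10 and 15 reads in WT. Its normalized reads were 4.38, 10.2 and 6.65 in HSKO and 9.16, 6.58 and 8.46 in WT, which overlapped.

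**Figure D4:**
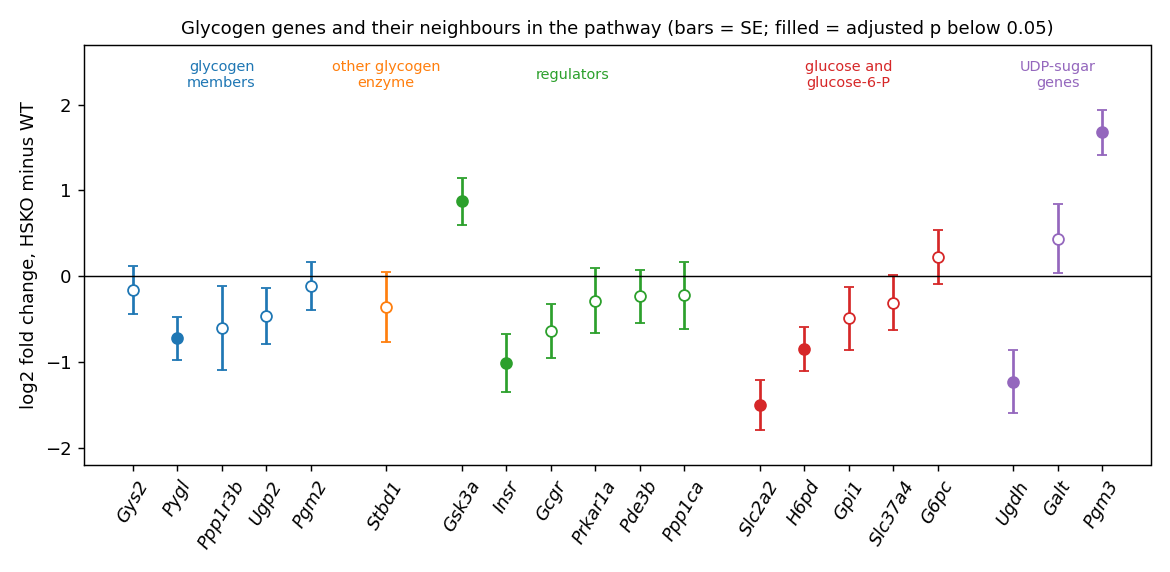
Log2 fold change (HSKO minus WT) with its standard error for the tested glycogen genes and the tested genes named around them, grouped by list, with filled points where the limma adjusted p was below 0.05. Slc2a2 is lowest at -1.50 and Pgm3 highest at 1.68, and all 5 glycogen genes lie below 0 with only Pygl filled.

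Markers of other liver cells were sparse. Summed levels, in normalized reads, were 42.2 to 78.5 in HSKO and 57.0 to 94.8 in WT for 10 macrophage markers. They were 17.4 to 32.2 in HSKO and 34.3 to 39.5 in WT for 8 endothelial markers, and 14.6 to 30.5 in HSKO and 40.6 to 42.8 in WT for 7 stellate and fibroblast markers. Those of 5 cholangiocyte markers were 5.32 to 17.5 in HSKO and 10.7 to 15.8 in WT, with Krt19 and Krt7 at 0 in all libraries. Those of 6 lymphocyte markers were 0 to 2.66 in HSKO and 1.53 to 3.95 in WT, with Cd3e, Cd79b and Ms4a1 at 0. Those of 3 erythroid markers were 13.1 to 21.3 in HSKO and 13.7 to 19.1 in WT. Their part in the glycogen gene levels was not tested.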

How the data were processed

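The authors' deposited values are a normalized signal, namely reads per gene row over 1 size factor for each library. FastQC 0.11.3, RSEM 1.2.9, DESeq 1.16.0, Bowtie and mm10 are named, with no roles, per the submitters' processing notes (annotation, filters and strand setting not given in the sources used here). Dividing by the value of 1 read gave whole reads for 100% of values within 0.001. Of 29981 rows, 712 name several genes.

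Values were tested as log2(value + 1) with limma 3.58.1 in R 4.3.3 and a mean-variance trend, two-sided, over the 2750 rows whose mean was 10 or more, with Benjamini-Hochberg adjustment over them at 0.05. Ratios within libraries were compared by exact permutation. The 21 alternatives were pseudocounts, filters, scalings, variance settings, a replicate block, each library left out, and edgeR 4.0.16 and DESeq2 1.42.0 on recovered reads, which called 1285 and 909 rows against 1103 in limma. The test was checked on simulated data. Intervals and the limit of 3 reads for a 0 ignore copies made by amplification.

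Members and lists were chosen with earlier results of these data known. Named are the 9 members, Abca1, each list's called genes and up to 4 more by smallest p, and the 3 rows nearest to each of the most abundant pair of members. Genes given only by reads, such as Gaa, were named after their values were seen, and some list members are not reported here. Gyg1 shares the row of Gyg. Promoter windows are from RefSeq (GRCm38.p6), which held 7 of the 9 symbols.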

Additional observations from a re-analysis of the deposited data

How the results depend on the processing

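The main result, Pygl lower and no other of the glycogen genes called, was 0 genes called lower with no filter (limma adjusted p of Pygl 0.0817), with no trend (0.0553) and with scaling to hepatocyte markers, 2 with edgeR and with total reads less the largest row, 4 with total reads, and 0 to 1 with a library left out. Without WT replicate 1 the gene called was Ugp2 instead of Pygl. Signs turned, without a call, for Gys2 (0.41), Ugp2 (0.11), Pgm2 (0.44), Stbd1 (0.17), Prkar1a (0.25), Pde3b (0.33), the row AK182655,Ppp1ca (0.31), Gpi1 (0.038), Slc37a4 (0.23) and Gbe1, for which no test was made (0.23), with scaling to hepatocyte markers. They also turned for G6pc with upper quartile scaling (-0.066), edgeR (-0.043), total reads (-0.42) and total reads less the largest row (-0.25), and for Galt with the last pair of scalings (-0.18 and -0.011). With a library left out, log2 fold changes ranged from -1.08 to 0.13 for Ppp1r3b, -0.76 to 0.14 for Gbe1, -0.32 to 0.075 for Pgm2, -0.52 to 0.082 for Pde3b and -0.066 to 0.42 for G6pc. Called with all libraries, Gsk3a lost its call in 9 of 20 alternatives and Insr in 5. The cause was not tested.

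Over all rows, 783 were called higher and 320 lower. Rows called higher numbered 391 with a minimum mean of 50, 221 with total reads and 429 with total reads less the largest row. Rows called lower numbered 211 with no filter, 118 with a minimum mean of 50, 703 with upper quartile scaling, 502 with quantile normalization, 1044 with total reads, 913 with total reads less the largest row, 22 with scaling to hepatocyte markers, 490 with array weights and 601 with edgeR. They numbered 157 to 313 with a library left out, the lowest without WT replicate 3 and 159 without WT replicate 2. The median log2 fold change of all rows shifted by -0.28 with upper quartile scaling, -0.09 with quantile normalization, -0.20 with edgeR, -0.47 with total reads less the largest row, -0.64 with total reads and 0.55 with hepatocyte markers. The HSKO minus WT difference of the log2 ratio of Gys2 to Pygl was 0.56 and ranged from 0.19, without WT replicate 1, to 0.77 with a library left out. That of Ppp1r3b to Ppp1r3c was 0.41, and it was -0.49 without HSKO replicate 1, 1.49 without HSKO replicate 2 and -0.023 with a pseudocount of 10. That of Pgm1 to Pgm2 was -0.49, and it was 0.0015 with a pseudocount of 10 and ranged from -0.83 to -0.25 with a library left out. None of the 3 ratios passed under any of these, in designs where 0.1 is the smallest p.

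With the replicate number as a block, 751 rows were called higher and 269 lower, and Pygl alone among the glycogen genes (adjusted p = 0.0466). The correlations of deviations from the group means were -0.0261, -0.0275 and -0.0209 for same-numbered libraries. They were -0.032 to 0.053 for HSKO and WT libraries with different numbers. With 3 libraries per group, these values cannot tell whether same-numbered libraries shared more than a number. Reads limit the results for Gyg, Pgm1, Ppp1r3c and Gbe1, which at this depth could show no difference short of a large one.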
